A study of Mus musculus with 12 samples.

Results

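The 10 genes described are ones that hepatocytes around the central vein express under beta-catenin control, followed across 12 mouse liver samples. They were the 10 rows of a table of 25540 gene symbols that carry the symbols Glul, Slc1a2, Rhbg, Oat, Cyp2e1, Tbx3, Lgr5, Axin2, Rnf43 and Znrf3. The list rests on knowledge of the pathway and not on a threshold, but it was chosen with earlier results of these data known. All 10 passed the filter on low counts, which left 15720 genes for testing. The samples were livers of BALB/c mice injected with preparations labelled iExos, taken here as exosomes, small vesicles that cells release, from the title of the series. The 4 groups of 3 were siSTAT3 and its control siCntrl (the siRNA arm), and mASO STAT3 and its control mASO Scrbl (the mASO arm). Small interfering RNA is commonly shortened to si and antisense oligonucleotide to ASO, and the m of mASO has no explanation in the sources used here. Injection is common to all 4 groups, the dose, the timing and the age of the mice were not given in the sources used here, and uninjected livers were not analysed here. The title of the series places the work in liver fibrosis, but the labels do not say whether or how the livers were injured. The labels do not say that the samples of a group came from separate mice, so a p-value refers to the scatter among these libraries, part or all of which may be technical.

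Hepatocytes divide their work along the liver lobule. Endothelial cells of the central vein release Wnt ligands and R-spondin, which keep beta-catenin stable in the neighbouring hepatocytes, where it acts with TCF/LEF proteins on DNA. The genes it switches on there serve glutamine synthesis, ammonium and glutamate uptake and drug metabolism, or feed back on Wnt signalling itself. Beta-catenin activity is set largely by how fast the protein is degraded, which mRNA levels do not measure.

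Library totals ran from 39844158 to 67791159 counts. Levels are given as CPM, counts relative to library size after TMM scaling, which corrects for differences in library composition, and changes as log2 fold changes ± SE from edgeR. Stat3, the gene that the group names point to, checked the labels first. Its level lay between 91.5 and 122 CPM in siSTAT3 livers against 106 to 121 CPM in siCntrl livers, and between 88.2 and 115 CPM in mASO STAT3 livers against 90.0 to 106 CPM in mASO Scrbl livers. The groups overlapped in both arms, with log2 fold changes of −0.03 ± 0.14 (edgeR adjusted p = 0.868) and 0.05 ± 0.14 (edgeR adjusted p = 0.792). Stat3 mRNA therefore does not tell which libraries received which load, and the group names below are those of the labels. Scaling by library totals gave −0.54 and −0.53 for Stat3 (edgeR adjusted p = 0.00446 and 0.00413), while the same scaling moved the median of all tested genes to −0.53 and −0.63. Of the genes tested, 22.4% were called higher and 23.4% lower in siSTAT3 livers, and 21.3% higher and 22.5% lower in mASO STAT3 livers, at an edgeR adjusted p under 0.05.

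Beta-catenin reaches DNA through TCF/LEF proteins, whose motif was searched as CTTTGAA or CTTTGAT, with the shorter core CTTTG, on both strands. RefSeq promoter windows (build GRCm38.p6, 250 bases before to 50 bases after a gene's start) were at hand for 6 of the 10 genes. Lgr5, Rhbg, Tbx3 and Znrf3 had no entry. The upstream bases of 3 genes of large change are shown, with every match to the motif or its core in capitals. Cyp2e1 lies at chr7:140763569-140763818 and Slc1a2 at chr2:102706188-102706437, and Glul, shown as a gene without a match, at chr1:153899679-153899928, all on the plus strand and written 5′ to 3′.
Cyp2e1: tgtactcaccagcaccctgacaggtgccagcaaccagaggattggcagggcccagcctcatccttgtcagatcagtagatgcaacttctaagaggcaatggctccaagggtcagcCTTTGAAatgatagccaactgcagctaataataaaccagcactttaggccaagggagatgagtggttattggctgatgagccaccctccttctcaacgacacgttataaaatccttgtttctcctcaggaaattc
Slc1a2: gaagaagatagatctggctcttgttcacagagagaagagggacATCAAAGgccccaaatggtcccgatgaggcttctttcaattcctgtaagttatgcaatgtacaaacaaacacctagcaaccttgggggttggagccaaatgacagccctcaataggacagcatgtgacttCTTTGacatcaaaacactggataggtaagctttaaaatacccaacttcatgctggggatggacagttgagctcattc
Glul: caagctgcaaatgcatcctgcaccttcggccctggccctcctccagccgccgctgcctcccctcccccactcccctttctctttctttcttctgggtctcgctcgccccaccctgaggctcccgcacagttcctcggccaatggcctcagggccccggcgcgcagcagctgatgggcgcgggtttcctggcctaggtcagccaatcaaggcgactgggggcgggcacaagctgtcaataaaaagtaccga
The Cyp2e1 window held CTTTGAA in gene orientation, with its first base at position −135 from the start. The Slc1a2 window held CTTTGAT on the opposite strand, read above as ATCAAAG and beginning at position −207, and a second core CTTTG at position −77. The windows of Glul, Axin2 and Oat and both windows of Rnf43 held neither the motif nor its core. Over all 32851 RefSeq windows, 8.65% held one of the 7-base motifs and 53.9% the core, and over the 250 upstream bases alone 7.48% and 48.6% did. A match describes the letters only. It is no evidence of binding, and enhancers outside the windows were not searched.

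In all, 9 of the 10 genes were called higher in siSTAT3 livers than in siCntrl livers, and the same 9 in mASO STAT3 livers than in mASO Scrbl livers. Over all tested genes, the shares called higher were 22.4% in the siRNA arm and 21.3% in the mASO arm. Among the 10, the exception in both arms was Znrf3. None was called lower in either arm by edgeR, DESeq2 or limma voom, and 0 were lower at an unadjusted edgeR p under 0.05. In all 9, every library of the STAT3 group stood above every library of its control, which 25.5% of the tested genes did in the siRNA arm and 27.2% in the mASO arm. The opposite pattern, every STAT3 library below every control, was seen in 27.5% and 29.6% of the tested genes and in none of the 10. The median log2 fold change of the 10 genes was 2.75 in the siRNA arm and 3.78 in the mASO arm, against −0.04 and −0.05 over all tested genes. In bulk liver RNA, fewer cells of a type and less RNA per cell cannot be told apart.

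**Figure D1:**
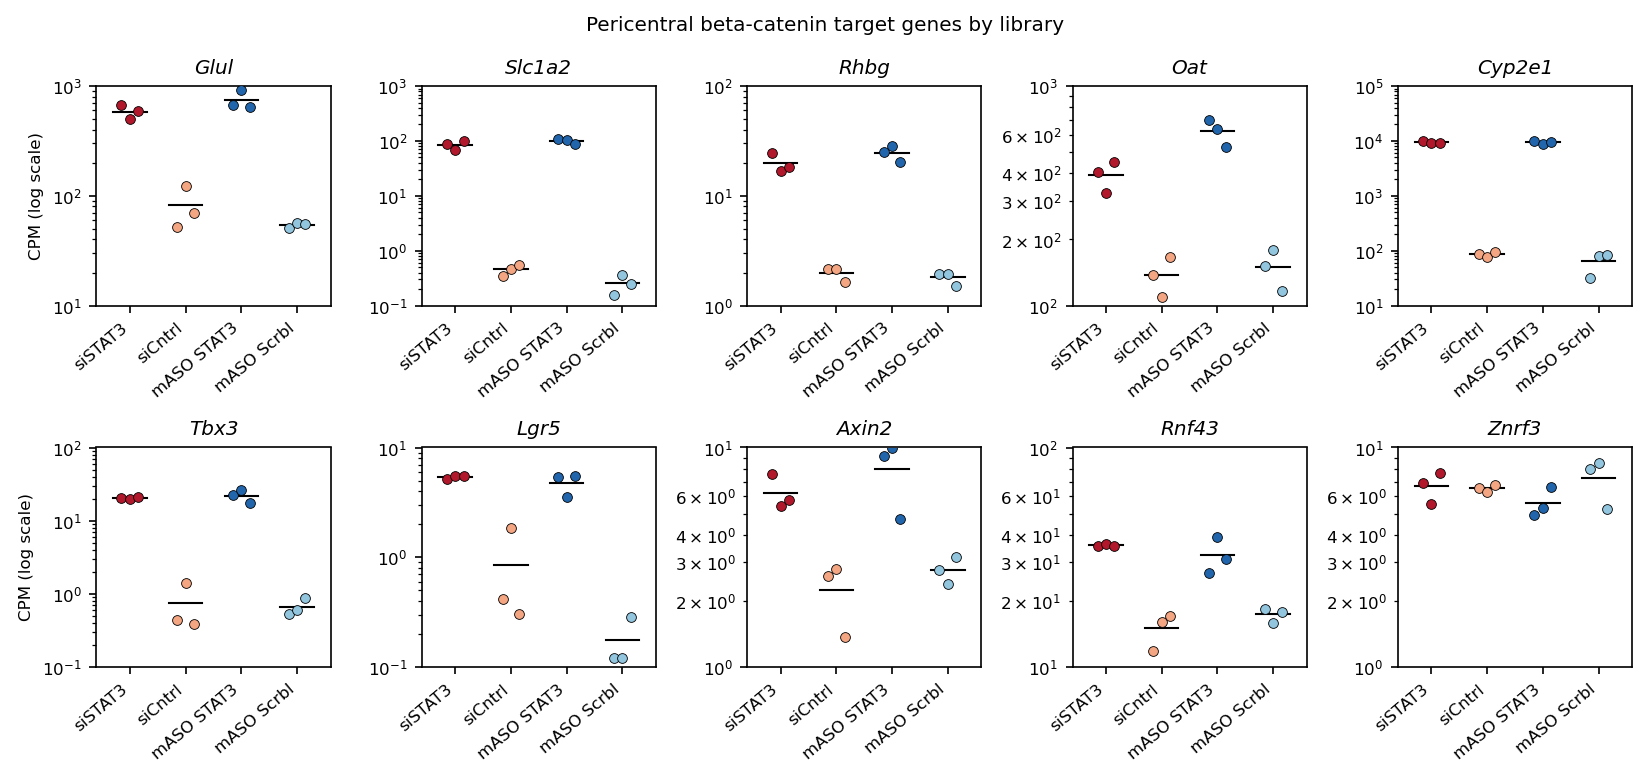
CPM on a log axis in each of the 3 libraries of siSTAT3, siCntrl, mASO STAT3 and mASO Scrbl, one panel per gene, with points for libraries and a line for the mean. In 9 panels all points of each STAT3 group lie above those of its control, and the Znrf3 panel shows overlapping groups.

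The 4 genes of glutamine, glutamate and ammonium handling all rose. Glul encodes glutamine synthetase, which joins ammonium to glutamate in the last rows of hepatocytes before the central vein. It stood at 673, 497 and 587 CPM in siSTAT3 livers, against 51.7, 124 and 70.2 CPM in siCntrl livers. In the mASO arm it stood at 678, 927 and 643.5 CPM in mASO STAT3 livers, against 51.0, 56.5 and 55.9 CPM in mASO Scrbl livers. The groups were far apart in both arms, and siCntrl 2 was the highest control. The log2 fold changes of Glul were 2.84 ± 0.28 (edgeR adjusted p = 3.71e-06) and 3.78 ± 0.29 (edgeR adjusted p = 4.77e-07).

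Slc1a2 encodes a glutamate transporter that supplies the substrate of glutamine synthetase. It stood at 87.4, 69.4 and 101 CPM in siSTAT3 livers, against 0.347, 0.460 and 0.560 CPM in siCntrl livers. It stood at 110, 105 and 87.1 CPM in mASO STAT3 livers, against 0.158, 0.363 and 0.248 CPM in mASO Scrbl livers. The control values rest on 26, 32 and 39 reads in siCntrl and 13, 30 and 20 reads in mASO Scrbl, against 2698 to 5519 reads in each library of the STAT3 groups. Of the 10 genes Slc1a2 had the highest fold change in both arms, at 7.56 ± 0.27 (edgeR adjusted p = 1.07e-09) and 8.61 ± 0.28 (edgeR adjusted p = 8.12e-10). Among all tested genes it ranked 7 from the top in the siRNA arm and 2 in the mASO arm.

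Rhbg encodes an ammonium transporter of the cell membrane. It stood at 24.4, 16.9 and 18.1 CPM in siSTAT3 livers, against 2.16, 2.15 and 1.65 CPM in siCntrl livers. The mASO STAT3 livers held 25.2, 28.2 and 20.4 CPM of Rhbg, against 1.95, 1.94 and 1.52 CPM in mASO Scrbl livers. The spread within a group was small beside the gap, and the log2 fold changes were 3.32 ± 0.21 (edgeR adjusted p = 8.92e-08) and 3.77 ± 0.21 (edgeR adjusted p = 3.52e-08). Oat encodes ornithine aminotransferase, a mitochondrial enzyme that turns ornithine towards glutamate. It stood at 407, 326 and 452 CPM in siSTAT3 livers, against 138, 110 and 167 CPM in siCntrl livers. The mASO STAT3 livers held 701, 638 and 530.1 CPM of Oat, against 152, 179 and 117 CPM in mASO Scrbl livers. Oat thus moved less than the other 3 genes of this group, by 1.52 ± 0.20 (edgeR adjusted p = 4.41e-05) and 2.06 ± 0.20 (edgeR adjusted p = 3.65e-06), without overlap between a STAT3 group and its control.

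Cyp2e1, a cytochrome P450 that oxidises ethanol and paracetamol, had the second highest fold change of the 10 in both arms. It stood at 10080, 9035 and 9025 CPM in siSTAT3 livers, against 88.0, 76.6 and 94.1 CPM in siCntrl livers. In the mASO arm it stood at 10140, 8829 and 9369 CPM in mASO STAT3 livers, against 32.0, 79.3 and 82.4 CPM in mASO Scrbl livers, where library 1 was the low one. The log2 fold changes were 6.77 ± 0.34 (edgeR adjusted p = 1.51e-08) and 7.19 ± 0.35 (edgeR adjusted p = 1.11e-08), rank 11 and rank 10 of all tested genes from the top. As a share of all counts, Cyp2e1 made up 0.731% to 0.847% of a siSTAT3 library against 0.00962% to 0.0105% of a siCntrl library, and 0.753% to 0.824% of a mASO STAT3 library against 0.00397% to 0.0103% of a mASO Scrbl library.

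Tbx3, a T-box transcription factor gene, and Lgr5, the gene of an R-spondin receptor, were low in the controls, with 10 to 128 reads a library. Tbx3 stood at 20.2, 19.9 and 21.2 CPM in siSTAT3 livers, against 0.440, 1.41 and 0.388 CPM in siCntrl livers. Its level was 22.6, 26.0 and 17.3 CPM in mASO STAT3 livers, against 0.534, 0.593 and 0.879 CPM in mASO Scrbl livers. Its log2 fold changes were 4.78 ± 0.41 (edgeR adjusted p = 1.79e-06) and 5.03 ± 0.41 (edgeR adjusted p = 1.24e-06), with no overlap in either arm. Lgr5 stood at 5.115, 5.503 and 5.529 CPM in siSTAT3 livers, against 0.413, 1.84 and 0.302 CPM in siCntrl livers. In mASO STAT3 livers it stood at 5.34, 3.56 and 5.45 CPM, against 0.121, 0.121 and 0.285 CPM in mASO Scrbl livers, where the 3 values rest on 10, 10 and 23 reads. Its log2 fold changes were 2.66 ± 0.56 (edgeR adjusted p = 0.00171) and 4.75 ± 0.63 (edgeR adjusted p = 5.65e-05), the widest errors of the 10 genes. The library siCntrl 2 was the high control for both genes, and without it the siRNA arm gave 3.90 for Lgr5 (edgeR adjusted p = 1.65e-05) and 5.62 for Tbx3 (edgeR adjusted p = 6.66e-08).

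**Figure D2:**
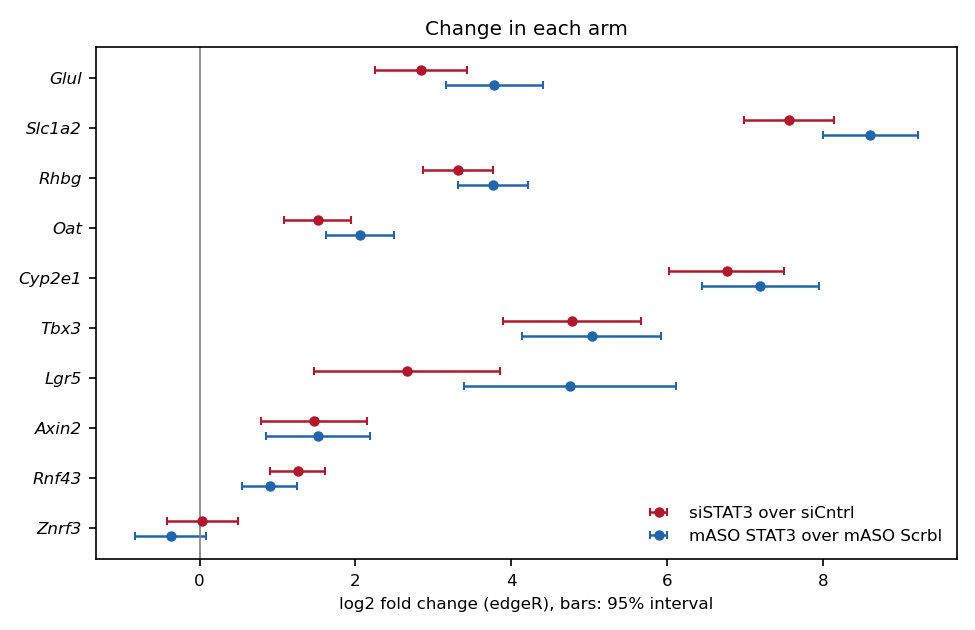
Log2 fold change of each gene with its 95% interval, siSTAT3 over siCntrl in red and mASO STAT3 over mASO Scrbl in blue. With TMM scaling the 9 called genes lie right of 0 in both arms, from Rnf43 to Slc1a2, and the Znrf3 intervals cross 0.

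The 3 feedback inhibitors of Wnt signalling moved least. Axin2, a scaffold of the complex that degrades beta-catenin and a widely used readout of the pathway, stood at 7.54, 5.43 and 5.74 CPM in siSTAT3 livers, against 2.59, 2.80 and 1.37 CPM in siCntrl livers. In the mASO arm Axin2 stood at 9.13, 9.94 and 4.75 CPM in mASO STAT3 livers, against 2.76, 2.39 and 3.16 CPM in mASO Scrbl livers. The groups did not overlap, and the log2 fold changes were 1.47 ± 0.32 (edgeR adjusted p = 0.00186) and 1.52 ± 0.31 (edgeR adjusted p = 0.00145).

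Rnf43 and Znrf3 encode a pair of related membrane ubiquitin ligases that clear Frizzled receptors, and R-spondin acts by removing them. Rnf43 stood at 35.8, 36.2 and 35.7 CPM in siSTAT3 livers, against 11.8, 16.1 and 17.2 CPM in siCntrl livers. Its level was 27.0, 39.2 and 31.1 CPM in mASO STAT3 livers, against 18.4, 15.8 and 17.9 CPM in mASO Scrbl livers. It rose in both arms, by 1.26 ± 0.17 (edgeR adjusted p = 4.05e-05) and 0.90 ± 0.16 (edgeR adjusted p = 5.68e-04), without overlap. Znrf3 stood at 6.88, 5.56 and 7.62 CPM in siSTAT3 livers, against 6.57, 6.25 and 6.75 CPM in siCntrl livers. In mASO STAT3 livers it stood at 4.92, 5.29 and 6.60 CPM, against 7.99, 8.54 and 5.24 CPM in mASO Scrbl livers. The groups overlapped in both arms, and the log2 fold changes were 0.04 ± 0.21 (95% interval −0.42 to 0.49, edgeR adjusted p = 0.906) and −0.37 ± 0.21 (−0.82 to 0.08, edgeR adjusted p = 0.169). Without mASO Scrbl 3, the low library of that group, Znrf3 was called lower in the mASO arm, at −0.56 (edgeR adjusted p = 0.0433).

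The ratio of Rnf43 to Znrf3 reads within a library needs no scaling between libraries, and it was computed after the values of both genes were seen. It was 5.19, 6.52 and 4.69 in siSTAT3 livers, against 1.80, 2.57 and 2.54 in siCntrl livers. It was 5.48, 7.41 and 4.72 in mASO STAT3 livers, against 2.30, 1.86 and 3.42 in mASO Scrbl livers. All 6 STAT3 libraries thus lay above all 6 controls, with a difference in the mean log2 ratio of 1.25 in the siRNA arm and 1.24 in the mASO arm. No test is given for the ratio, since it was chosen on these values, and a ratio does not tell which of the 2 genes moved.

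**Figure D3:**
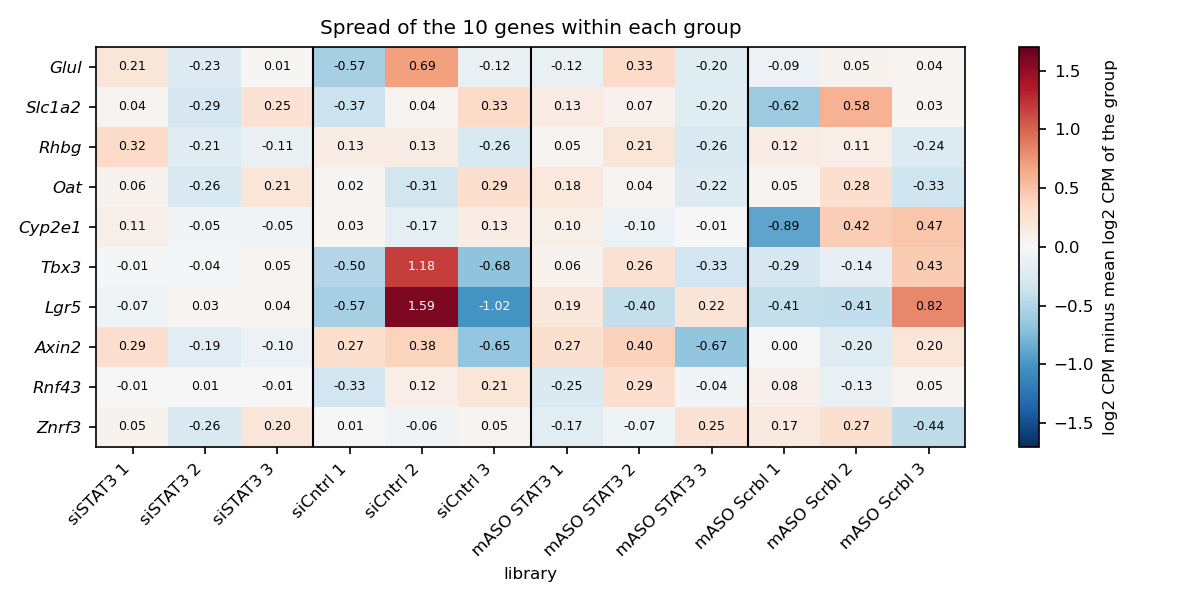
Deviation of each library from the mean of its group, in log2 CPM, for the 10 genes (rows) and 12 libraries (columns, in blocks of 3 by group). The strongest colours are Lgr5 at 1.59 and Tbx3 at 1.18 in siCntrl 2, and the blocks of siSTAT3 are pale.

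Within the STAT3 groups, siSTAT3 2 and mASO STAT3 3 were low for most of the 10 genes. The library siSTAT3 2 was the lowest of its group for 7 of them and mASO STAT3 3 for 6, with median deviations of −0.20 log2 units in each. In siCntrl 2, Lgr5 lay 1.59, Tbx3 1.18 and Glul 0.69 log2 units above the group mean, whereas Cyp2e1 lay at −0.17 and Oat at −0.31. In mASO Scrbl 1, Cyp2e1 lay at −0.89 and Slc1a2 at −0.62, while Znrf3 lay at 0.17. Axin2 was low in mASO STAT3 3, at −0.67, and in siCntrl 3, at −0.65. In the siSTAT3 libraries no deviation of the 10 genes was larger than the 0.32 of Rhbg in siSTAT3 1. The highest median deviation of a library was 0.14, in mASO STAT3 2.

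The arms were then compared directly, since a gene can rise in both and still rise more in one. The difference was taken as the siRNA change minus the mASO change. None of the 10 genes was called by edgeR, against 0.00636% of all tested genes, and DESeq2 and limma voom also called 0. At an unadjusted edgeR p under 0.05 there were 3 of the 10, against 1161 of the 15720 tested genes. The 3 were Lgr5 at −2.09 ± 0.79, Slc1a2 at −1.05 ± 0.35 and Glul at −0.94 ± 0.36, with edgeR adjusted p of 0.643, 0.630 and 0.647. All 3 rose in both arms, and their negative differences say that the point estimate was smaller in the siRNA arm. For Axin2 the difference was −0.05 ± 0.44 (95% interval −0.99 to 0.89).

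The 2 controls bear on those differences, because each enters 1 arm. Between mASO Scrbl and siCntrl livers edgeR called none of the 10 genes, against 0.0127% of all tested genes. An unadjusted edgeR p under 0.05 was reached by 3 of the 10, against 1234 of the 15720 tested genes. These were again Lgr5 at −2.26 ± 0.60, Slc1a2 at −0.82 ± 0.30 and Glul at −0.59 ± 0.26, lower in mASO Scrbl livers, with edgeR adjusted p of 0.427, 0.569 and 0.620. DESeq2 called Lgr5 lower (DESeq2 adjusted p = 0.0164), and over the alternatives the adjusted p of Lgr5 ran from 0.0164 to 0.995. Limma voom called 0. Between mASO STAT3 and siSTAT3 livers edgeR called none of the 10 genes and 0% of all tested genes, and DESeq2 and limma voom called none of the 10. Only Oat of the 10 had an unadjusted edgeR p under 0.05 there, as had 919 of the 15720 tested genes. Oat was higher in mASO STAT3 livers by 0.66 ± 0.20 (edgeR adjusted p = 0.530). These comparisons share libraries with those of the arms and are not independent of them.

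Across the 4 groups, 9 of the 10 genes had both STAT3 groups above both controls by mean CPM. The order within the STAT3 groups was mASO STAT3 above siSTAT3 for 7 of the 9, and the reverse for Lgr5 and Rnf43. Apart from Oat, whose 3 mASO STAT3 libraries lay above all 3 siSTAT3 libraries, the 2 STAT3 groups overlapped for every one of the 10 genes. Znrf3 ran from mASO Scrbl at the top through siSTAT3 and siCntrl to mASO STAT3, with neighbours overlapping.

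Another scaling set the libraries to the level of 11 general hepatocyte markers. These markers themselves differed in their change, from Apoa2 at 2.71 and 2.55 to Fabp1 at −0.12 and 0.72 and Ambp at 0.07 and 0.36, and 6 of the 11 were not called in the siRNA arm and 3 in the mASO arm. The summed level of these markers was 156400 to 170300 CPM in siSTAT3 livers against 69420 to 109200 CPM in siCntrl livers, and 139100 to 188800 CPM in mASO STAT3 livers against 68780 to 101200 CPM in mASO Scrbl livers. With that scaling 7 of the 10 genes were called higher in each arm, and Cyp2e1 (5.998 and 6.14), Slc1a2 (6.79 and 7.56), Tbx3 (3.93 and 4.02), Rhbg (2.54 and 2.73) and Glul (2.01 and 2.76) were among them, at these log2 fold changes. Oat stood at 0.77 and 1.002 and Lgr5 at 1.77 and 3.73. Axin2 was no longer called, at 0.68 (edgeR adjusted p = 0.0967) and 0.51 (edgeR adjusted p = 0.193), nor was Rnf43, at 0.46 (edgeR adjusted p = 0.0752) and −0.12 (edgeR adjusted p = 0.646). Over the alternatives tried, the adjusted p of Axin2 ran from 1.97e-05 to 0.0967 in the siRNA arm and from 6.45e-06 to 0.193 in the mASO arm, and that of Rnf43 from 5.92e-11 to 0.0752 and from 2.52e-06 to 0.646. Znrf3 was called lower in both arms, at −0.73 (edgeR adjusted p = 0.0241) and −1.43 (edgeR adjusted p = 1.69e-04), with ranges of 0.0241 to 1 and 1.69e-04 to 0.45.

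This scaling moved the median of all tested genes to −0.82 in the siRNA arm and −1.09 in the mASO arm, so it shifts every gene alike, and it does not measure hepatocyte content, whose part in the 9 rises was not tested. Relative to that median, Axin2 stood at 1.49 and 1.60 and Rnf43 at 1.28 and 0.97, close to their 1.51 and 1.58 and 1.29 and 0.95 with TMM. Znrf3 stood at 0.08 and −0.34 relative to it, against 0.07 and −0.32 with TMM. Of all calls, 48.9% were higher in the siRNA arm and 48.6% in the mASO arm with TMM, 18.6% and 16.1% with library totals, and 10.4% and 7.2% with hepatocyte markers. The sign of Znrf3 in the siRNA arm and that of Rnf43 in the mASO arm turned under scalings that moved all genes, while Znrf3 in the mASO arm was below 0 under each scaling.

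**Figure D4:**
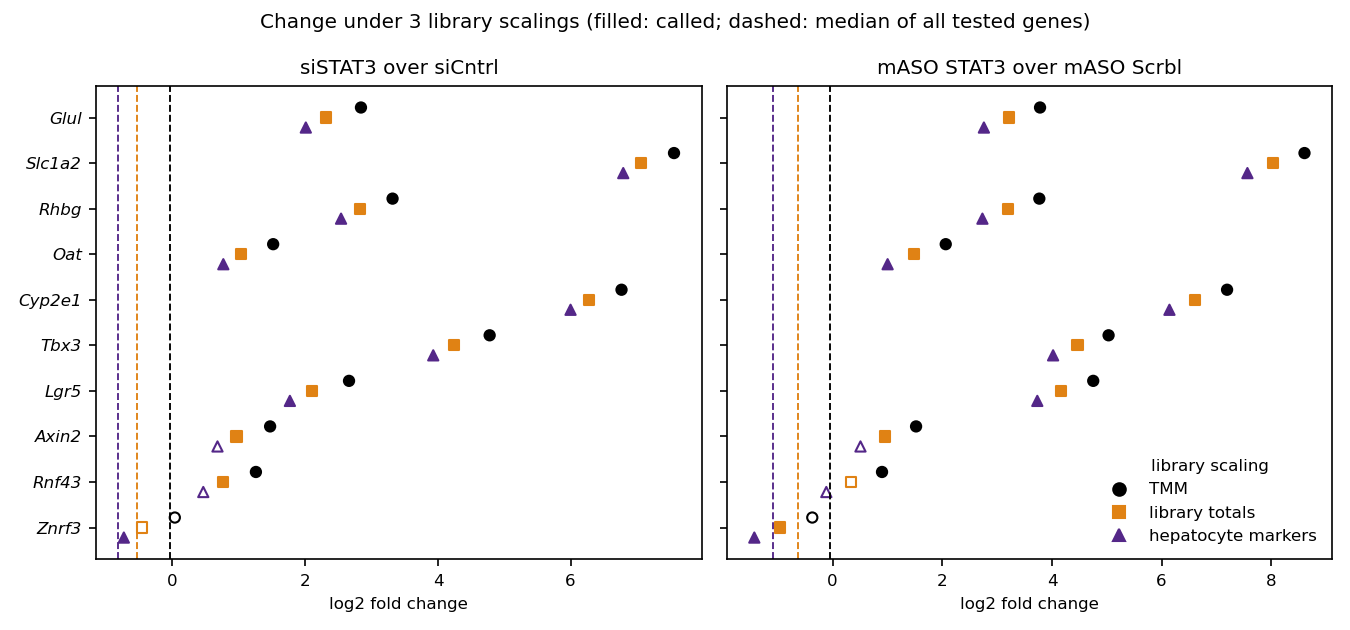
Log2 fold change of the 10 genes in each arm with libraries scaled by TMM (circles), library totals (squares) or hepatocyte markers (triangles), filled where called. Dashed lines mark the median of all tested genes under each scaling, which moves left together with the points.

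Other genes known from pericentral hepatocytes were nearly all called higher. Of 14 such genes, 13 were called higher and 0 lower in siSTAT3 livers, with a median log2 fold change of 3.13, and 14 higher and 0 lower in mASO STAT3 livers, with a median of 2.73. The shares of all tested genes called higher were 22.4% and 21.3%. Gulo, the last enzyme of mouse vitamin C synthesis, changed by 4.22 ± 0.17 and 4.58 ± 0.17 (edgeR adjusted p = 2.81e-09 and 1.74e-09). Cyp27a1, a sterol hydroxylase gene of bile acid synthesis, changed by 2.40 ± 0.14 and 2.32 ± 0.14 (edgeR adjusted p = 4.60e-08 and 6.10e-08), and Cyp1a2, a P450 that oxidises caffeine, by 7.03 ± 0.41 and 5.38 ± 0.38 (edgeR adjusted p = 9.79e-08 and 3.82e-07). The transporter gene Slc22a3 was the one not called in the siRNA arm, at −0.26 ± 0.53 (edgeR adjusted p = 0.715). The summed level of the 14 was 7834 to 11030 CPM in siSTAT3 livers against 652 to 677 CPM in siCntrl livers, and 8133 to 10240 CPM in mASO STAT3 livers against 857 to 1337 CPM in mASO Scrbl livers.

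Periportal genes are expressed by hepatocytes at the other end of the lobule. Of 13, 8 were called higher, 1 lower and 4 neither way in the siRNA arm, with a median log2 fold change of 1.32. In the mASO arm 10 were called higher, 1 lower and 2 neither way, with a median of 1.95. With hepatocyte-marker scaling 3 were lower in the siRNA arm. Asl, the argininosuccinate lyase of the urea cycle, changed by 3.48 ± 0.24 and 3.93 ± 0.25 (edgeR adjusted p = 2.17e-07 and 9.43e-08). Cyp2f2, a periportal P450, changed by 3.67 ± 0.34 and 1.95 ± 0.31 (edgeR adjusted p = 2.79e-06 and 2.61e-04), and the aldehyde dehydrogenase gene Aldh1b1 by 2.04 ± 0.24 and 2.28 ± 0.24 (edgeR adjusted p = 1.80e-05 and 7.27e-06). The lower gene was Cdh1, which encodes E-cadherin of epithelial junctions, at −2.33 ± 0.21 and −2.27 ± 0.21 (edgeR adjusted p = 1.81e-06 and 2.16e-06). Whether the lists of the 2 zones differed in their change was not tested.

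Further genes of ammonium and glutamate handling, the field of Glul, Slc1a2, Rhbg and Oat, were called in both directions. Of 18 listed, 15 were tested, of which 7 were called higher and 4 lower in the siRNA arm (median 0.34) and 8 higher and 4 lower in the mASO arm (median 0.88). Prodh and Aldh4a1, which encode both steps from proline to glutamate, changed by 4.25 ± 0.22 and 2.98 ± 0.23 in the siRNA arm and by 4.34 ± 0.22 and 3.39 ± 0.24 in the mASO arm (edgeR adjusted p = 1.82e-08, 5.10e-07, 1.68e-08 and 2.09e-07). Slc38a3, a glutamine transporter gene of hepatocytes, changed by 3.03 ± 0.23 and 2.98 ± 0.23 (edgeR adjusted p = 3.53e-07 and 4.21e-07). Aldh18a1 and Pycr1, which encode enzymes of the opposite route from glutamate to proline, fell by 2.63 ± 0.26 and 2.13 ± 0.33 in the siRNA arm (edgeR adjusted p = 3.76e-06 and 1.54e-04) and by 2.42 ± 0.25 and 2.26 ± 0.33 in the mASO arm (edgeR adjusted p = 5.95e-06 and 9.34e-05). Glud1, the glutamate dehydrogenase gene, stood at −0.63 ± 0.15 and −0.59 ± 0.15 (edgeR adjusted p = 0.00477 and 0.00700). Rhcg, Slc1a1 and Slc1a3 were too low to test.

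**Figure D5:**
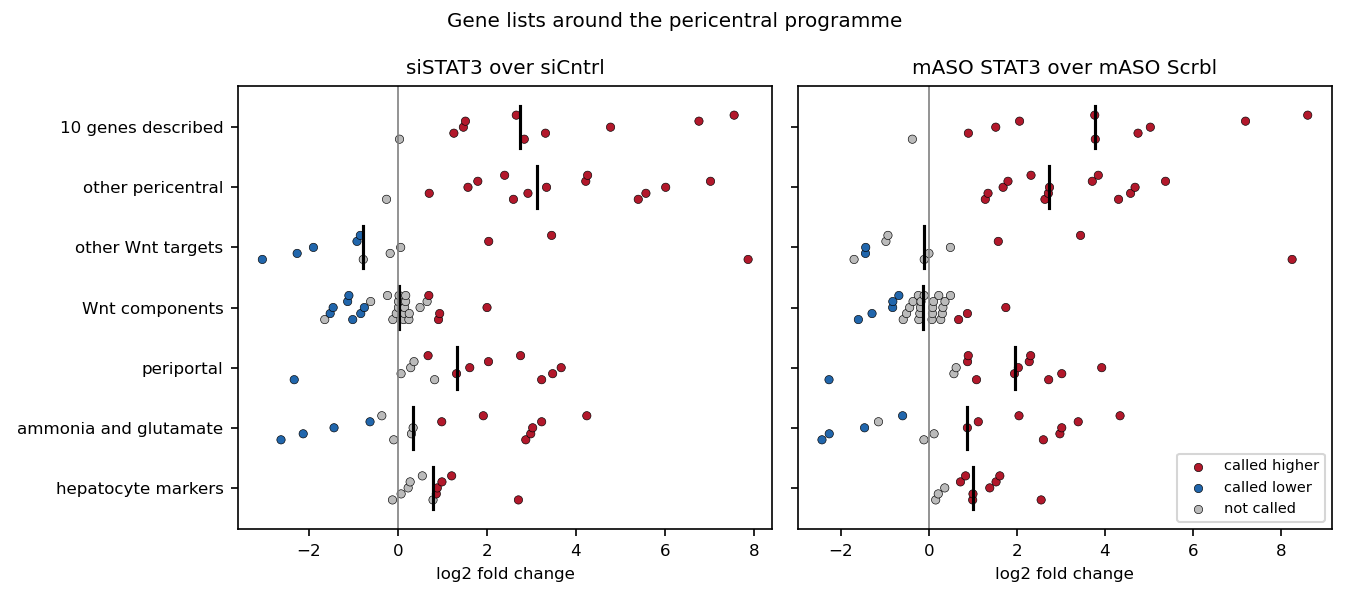
Log2 fold change of each tested gene of 7 lists, siSTAT3 over siCntrl on the left and mASO STAT3 over mASO Scrbl on the right, red where called higher, blue where called lower and grey where not called, with a black line at the median of each list. Pericentral genes other than Slc22a3 in the siRNA arm lie to the right of 0, and Wnt components are spread around it.

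Other feedback and target genes of Wnt signalling, listed without regard to zone, were called in both directions. Of 13 listed, 11 were tested, with 3 called higher and 5 lower in the siRNA arm (median −0.78) and 3 higher and 2 lower in the mASO arm (median −0.10). Without siCntrl 2 or siSTAT3 2, 3 were lower in the siRNA arm. Notum, a secreted enzyme that inactivates Wnt ligands, stood at 33.9, 42.8 and 41.0 CPM in siSTAT3 livers, against 2.11, 5.23 and 3.42 CPM in siCntrl livers. In mASO STAT3 livers Notum stood at 43.0, 38.6 and 34.4 CPM, against 3.55, 1.37 and 5.72 CPM in mASO Scrbl livers. Without overlap in either arm, Notum changed by 3.45 ± 0.44 and 3.45 ± 0.44 (edgeR adjusted p = 7.33e-05 and 7.42e-05), and the receptor gene Tnfrsf19 by 2.04 ± 0.24 and 1.58 ± 0.24 (edgeR adjusted p = 1.75e-05 and 1.22e-04). Sp5, a transcription factor gene and direct Wnt target, had 95, 53 and 46 reads in siSTAT3 livers, against 0, 1 and 0 in siCntrl livers. It had 112, 88 and 59 reads in mASO STAT3 livers, against 0, 1 and 0 in mASO Scrbl livers. Per scaled read, Sp5 was 346 times higher in siSTAT3 livers (exact 95% counting interval 61.4 to 13700) and 445 times higher in mASO STAT3 livers (79.2 to 17700), and edgeR called it in both arms (adjusted p = 3.97e-06 and 2.37e-06). Without the control library that held the 1 read, its fitted log2 change moved to 9.55 and 9.77 against 7.87 and 8.25 with it, values that depend on how a count of 0 is treated. Cd44, a cell surface receptor gene that many cell types express, was lower, at −1.90 ± 0.24 and −1.44 ± 0.23 (edgeR adjusted p = 2.93e-05 and 2.57e-04), and so was Ccnd1, the cyclin D1 gene, at −0.92 ± 0.32 and −1.43 ± 0.32 (edgeR adjusted p = 0.0332 and 0.00344), with overlapping groups in the siRNA arm. Nkd1, Nkd2 and Apcdd1 of the same list also lay below siCntrl in every siSTAT3 library. Nkd1 stood at 2.88 to 5.84 CPM against 7.08 to 9.22 CPM, and Nkd2 at 0.2765 to 0.555 CPM against 1.57 to 2.33 CPM. Apcdd1 had 1 to 2 reads in siSTAT3 livers against 15 to 31 in siCntrl livers. In the mASO arm Nkd2 was not called, though its groups did not overlap (0.362 to 0.646 CPM against 0.678 to 1.57 CPM), while Nkd1 and Apcdd1 overlapped. Every STAT3 library lay below every control for 27.5% of all tested genes in the siRNA arm and 29.6% in the mASO arm. Dkk1 and Wif1 were too low to test.

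Of 28 genes that carry the Wnt signal, all of which were tested, 4 were called higher and 7 lower in the siRNA arm (median 0.02) and 3 higher and 5 lower in the mASO arm (median −0.14). Among all tested genes, siSTAT3 livers had 22.4% called higher and 23.4% lower. For mASO STAT3 livers these shares were 21.3% and 22.5%. Whether the list differed from all tested genes was not tested, and the genes below are given singly. Ctnnb1, which encodes beta-catenin and was singled out after its values were seen, stood at 157, 95.2 and 169 CPM in siSTAT3 livers, against 272, 232 and 207 CPM in siCntrl livers. In mASO STAT3 livers Ctnnb1 stood at 128, 162 and 164 CPM, against 272, 287 and 240 CPM in mASO Scrbl livers. Ctnnb1 mRNA fell by 0.76 ± 0.20 (edgeR adjusted p = 0.00635) and 0.82 ± 0.20 (edgeR adjusted p = 0.00410), without overlap and under every alternative tried, in the same livers in which 9 of the 10 target genes rose. Of the Frizzled receptor genes, Fzd8 was higher, at 2.002 ± 0.21 and 1.75 ± 0.21 (edgeR adjusted p = 7.27e-06 and 2.13e-05). Fzd5 was lower, at −1.02 ± 0.17 and −1.29 ± 0.16 (edgeR adjusted p = 2.29e-04 and 3.26e-05), as was Fzd6, at −0.84 ± 0.21 and −1.60 ± 0.21 (edgeR adjusted p = 0.00528 and 4.70e-05). Lgr4, the R-spondin receptor gene related to Lgr5, changed by 0.91 ± 0.19 and 0.68 ± 0.18 (edgeR adjusted p = 0.00129 and 0.00886), and Dvl1, a Dishevelled gene that relays the signal from Frizzled, by 0.94 ± 0.16 and 0.88 ± 0.16 (edgeR adjusted p = 3.13e-04 and 5.36e-04). Bcl9l, a cofactor gene of beta-catenin, was called in the siRNA arm alone, at 0.69 ± 0.22 (edgeR adjusted p = 0.0202), with overlapping groups and a call that was lost without any 1 of siCntrl 2, siCntrl 3, siSTAT3 1 and siSTAT3 3 (0.55, 0.55, 0.60 and 0.67). The call of Lgr4 in the mASO arm was lost without mASO STAT3 3 (0.51, edgeR adjusted p = 0.0548). With hepatocyte-marker scaling the estimates of Lgr4 and Dvl1 in the mASO arm turned to −0.39 and −0.15, and that of Bcl9l in the siRNA arm to −0.049.

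The signals that reach pericentral hepatocytes come from endothelium, and 5 genes of that source were followed. Of these 5 genes of central vein endothelium, 0 were called higher and 2 lower in the siRNA arm, and 0 higher and 1 lower in the mASO arm. The shares of all tested genes called lower were 23.4% and 22.5%. The ligand gene Wnt2 stood at −0.12 ± 0.28 and 0.49 ± 0.28 (edgeR adjusted p = 0.761 and 0.171), and Rspo3, the R-spondin gene, at −0.61 ± 0.29 and 0.23 ± 0.28 (edgeR adjusted p = 0.0979 and 0.549). Wnt9b was lower in the siRNA arm, at −1.52 ± 0.41 (edgeR adjusted p = 0.00770), and stood at −0.58 ± 0.40 in the mASO arm (edgeR adjusted p = 0.254). Thbd, the thrombomodulin gene, was lower in both, at −2.47 ± 0.30 and −2.45 ± 0.30 (edgeR adjusted p = 2.50e-05 and 2.52e-05), and Cdh13 stood at 0.34 ± 0.41 and 0.01 ± 0.41 (edgeR adjusted p = 0.523 and 0.982). At an unadjusted edgeR p under 0.05, the 5 genes held 2 in the siRNA arm and 1 in the mASO arm, against 8285 and 8096 of the 15720 tested genes. Their summed level was 7.59 to 16.9 CPM in siSTAT3 livers against 25.6 to 31.1 CPM in siCntrl livers, and 12.8 to 18.6 CPM in mASO STAT3 livers against 22.5 to 32.1 CPM in mASO Scrbl livers. With hepatocyte-marker scaling 4 of the 5 were called lower in each arm. In the siRNA arm Rspo3 (−1.39, edgeR adjusted p = 0.00117) and Wnt2 (−0.87, edgeR adjusted p = 0.0235) joined those called lower, and Cdh13 turned to −0.42 (edgeR adjusted p = 0.391). In the mASO arm Wnt9b (−1.59, edgeR adjusted p = 0.00304), Rspo3 (−0.80, edgeR adjusted p = 0.0290) and Cdh13 (−1.02, edgeR adjusted p = 0.0365) joined them, and Wnt2 turned to −0.53 (edgeR adjusted p = 0.135). Leaving out 1 library turned the sign of uncalled estimates of Wnt2, Rspo3 and Cdh13, as for Cdh13 without siSTAT3 3 (−0.23).

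Markers of other liver cells moved with the same groups, and their part in the results was not tested. Beside the counts below, 22.4% of all tested genes were called higher and 23.4% lower in the siRNA arm. In the mASO arm these shares were 21.3% and 22.5%. Hepatocyte markers were called higher in 5 and 8 of 11 and lower in 0, whereas library totals gave 2 and 4 higher with 2 and 0 lower. Stellate and myofibroblast markers were lower in 7 of 8 in both arms, with 0 and 1 higher, and summed to 145 to 188 CPM in siSTAT3 livers against 1172 to 1551 CPM in siCntrl livers, and 181 to 227 CPM in mASO STAT3 livers against 798 to 1903 CPM in mASO Scrbl livers. Cholangiocyte markers were lower in 4 and 3 of 5, and summed to 81.7 to 132 CPM in siSTAT3 livers against 539.8 to 1375 CPM in siCntrl livers, and 67.7 to 93.4 CPM in mASO STAT3 livers against 581 to 1321 CPM in mASO Scrbl livers. Most of each sum was Spp1, whose mean was 91.05 CPM in siSTAT3 against 968.6 CPM in siCntrl livers. In mASO STAT3 livers its mean was 71.34 CPM against 960.3 CPM in mASO Scrbl livers. Krt7, Krt19, Epcam and Sox9 had group means of at most 11.65 CPM. Mean Krt19 was 4.47 CPM in mASO STAT3 against 4.89 CPM in mASO Scrbl livers. Markers of liver endothelium in general were lower in 3 of 6 in each arm, with 0 and 1 higher, and summed to 95.6 to 159 CPM in siSTAT3 livers against 130.1 to 162 CPM in siCntrl livers, and 96.9 to 168 CPM in mASO STAT3 livers against 127 to 150 CPM in mASO Scrbl livers. Macrophage markers were lower in 3 and 2 of 4 with 0 and 1 higher, and their summed levels overlapped, at 291 to 351 CPM in siSTAT3 livers against 297 to 616 CPM in siCntrl livers, and 296 to 356 CPM in mASO STAT3 livers against 274 to 416 CPM in mASO Scrbl livers. These sums join opposite moves. Mean Cd68 was 19.3 against 105 CPM in the siRNA arm and 17.6 against 114 CPM in the mASO arm. Mean Itgam was also lower in both arms. Mean Clec4f was 140 against 82.6 CPM and 143 against 75.6 CPM. Mean Lyz2 was 150 against 250 CPM and 171 against 164 CPM. Lymphoid markers were higher in 1 and 2 of 4 and lower in 1 and 0, and summed to no more than 4.70 CPM in any library. Counts of the endothelial, macrophage and lymphoid lists moved by 1 or 2 genes with single libraries left out, as without mASO STAT3 1, when 1 endothelial marker was lower and 0 higher. No marker of these lists was at 0 in all 3 libraries of a group.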

How the data were processed

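Per the labels' protocols, RNA of the 12 liver samples was extracted with TRIzol and made into stranded Illumina mRNA libraries. Raw counts for each gene symbol, without normalization, were deposited by the authors. TopHat and Cufflinks are named without version, per the submitters' processing notes, while the sources used here give no build, annotation, counting tool or use of strand. Without strand, overlapping antisense genes cannot be told apart. A second deposited table of normalized values was not used. The main model, fitted in edgeR (version 4.0.16, under R 4.3.3) to all 12 libraries, had only the group as a term. It used TMM scaling, a low-count filter by group (minimum count 10, minimum total 15) and the robust quasi-likelihood F test. P-values were Benjamini-Hochberg adjusted over 15720 genes at a threshold of 0.05, with 8 residual degrees of freedom before moderation. The SE is the size of the log2 fold change over the square root of F. TMM factors were 1.11 to 1.27 in controls and 0.804 to 0.901 in STAT3 libraries. Depth was 39844158 to 67791159 counts, and counting intervals cover counting error only. The common biological coefficient of variation was 0.247. Counts of libraries within a group differed far beyond sampling noise (chi-square over degrees of freedom 52.6 to 222), so each was kept as a sample. Alternatives used DESeq2 (version 1.42.0), limma voom (version 3.58.1), other scalings and filters, a replicate block, the compared libraries alone, and each library left out. The fit was also run on simulated counts, with far fewer genes changed than in these data and in siSTAT3 only. That run cannot test the choice of scaling.

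The 10 genes and all lists were chosen with earlier results of these data known, and nothing here is support independent of them. The genes named beside the 10 were, in each list of pericentral, periportal, ammonium and Wnt genes and in each arm, the 3 called genes of smallest p, any gene called against its list's direction, and all genes of central vein endothelium. Most genes of the other cell type lists, which the rule also named, are given by count and summed level only. A further gene that the rule names is not reported here. Slc22a3, Ctnnb1, Nkd1, Nkd2, Apcdd1 and the Rnf43 to Znrf3 ratio were added after their values were seen. Promoter sequences are RefSeq's. Positions in the authors' build are not printed.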

Additional observations from a re-analysis of the deposited data

How the results depend on the processing

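In all, 9 alternatives and 12 fits without 1 library gave 800 values for the 10 genes in the 5 comparisons. Of these, 765 kept their sign and their side of the threshold, and 25 changed sign without a call in either fit. With the sign kept, 4 became called and 4 were no longer called, and 2 reversed, changing sign with a call in at least 1 of the fits. The size of a move did not enter these counts. The count of genes higher was 9 in each arm. It was 9 and 8 with library totals, 7 and 7 with hepatocyte markers, and 9 under the other alternatives.

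The count of genes lower was 0 in each arm. It became 1, Znrf3, with hepatocyte markers in the siRNA arm, with library totals and hepatocyte markers in the mASO arm, and without mASO Scrbl 3, so that fits without 1 library ranged from 0 to 1. Between the controls it became 1, Lgr5, with DESeq2. Reversals came with hepatocyte markers, in the mASO arm for Rnf43 (−0.12), Dvl1 (−0.15), Lgr4 (−0.39), Cdh13 (−1.02) and Rspo3 (−0.80), and in the siRNA arm for Znrf3 (−0.73) and Bcl9l (−0.049). Stat3 in the mASO arm reversed with library totals (−0.53) and hepatocyte markers (−0.99). By construction those scalings shift all genes together. Tnfrsf19 in the mASO arm and Dvl1 and Lgr4 in the siRNA arm were no longer called with hepatocyte markers (0.56, 0.14 and 0.16), nor Bcl9l, Dvl1 and Lgr4 with library totals (0.21, 0.30 and 0.09, the last pair in the mASO arm).

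List counts moved by more than 1.5 times mainly with scaling. Wnt components called lower became 14 and 17 with library totals and 20 and 23 with hepatocyte markers, and those called higher 1 in both arms with hepatocyte markers and 1 in the mASO arm with library totals. Other Wnt targets called lower became 5 with library totals and 7 with hepatocyte markers in the mASO arm, and 3 in the siRNA arm without siCntrl 2 or siSTAT3 2. Lower periportal genes became 3 in the siRNA arm, and lower ammonium genes 7 in the mASO arm, with hepatocyte markers. Hepatocyte markers called higher became 2 and 4 with library totals and 2 and 3 with hepatocyte-marker scaling, and those called lower 2 in the siRNA arm with library totals and 3 in each arm with hepatocyte-marker scaling. Lower central vein genes became 4 in each arm with hepatocyte markers and 2 in the mASO arm with library totals. Marker counts of liver endothelium, macrophages and lymphoid cells moved by 1 to 2 genes when single libraries were left out.

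With the replicate block the 10 genes gave 9 higher and 0 lower in each arm, and over all genes 3328 were higher and 3431 lower in siSTAT3 livers (3515 and 3675 without the block), and 3201 higher and 3272 lower in mASO STAT3 livers (3344 and 3542). Residual correlations of same-numbered libraries were 0.296, 0.145 and −0.156 for the siRNA arm, and −0.046, −0.020 and −0.141 for the mASO arm, and 3 of 6 and 0 of 6 libraries correlated best with their own number, so the numbers were not taken as a pairing. Depth limits Lgr5, Slc1a2 and Tbx3 in the controls, where values rest on 10 to 128 reads.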
